A study of Mus musculus with 6 samples.

Results

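Of the 23207 Bapx1 peaks called in NIH3T3 cells, 1176 lay in local groups on the autosomes, away from transcription start sites. These clustered peaks were selected on the positions of the deposited summits alone. Each had at least 2 other summits of the same list within 10 kb, lay more than 1 kb from any mm9 transcript start and was outside Nkx3-2, the gene that encodes Bapx1. Neighbours less than 10 kb apart were joined, which gave 503 clusters. The remaining 19326 distal autosomal peaks, which met the same limits of chromosome and distance but not the limit on neighbours, served for comparison, and 15342 of these had no other summit within 10 kb.

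The study mapped Bapx1 binding by chromatin immunoprecipitation followed by sequencing (ChIP-Seq), with 1 library for each condition. In NIH3T3 cells, an established mouse fibroblast line, V5-tagged Bapx1 was overexpressed and pulled down with a V5 antibody. The labels call its control an input but also give a pull-down with the same antibody, from cells described both as carrying the empty pcDNA6 vector and as wild type 3T3. Which of these was sequenced is not settled by the labels, and every ratio of ChIP to this control, and its density, is read with that doubt. In CD1 embryos at E12.5, vertebral columns were used in which endogenous Bapx1 carried an S-peptide tag and was pulled down with an S-peptide antibody. Per its label and the paper, the control used this antibody on wildtype embryos, though its deposited name says input. All 4 libraries went through 14 rounds of PCR. The libraries held 9124697 tags for V5-Bapx1 and 13327426 for the V5 control in NIH3T3 cells, and 24855032 for Bapx1 and 20704235 for wildtype S-peptide in the embryo. With a single library per condition there is no replicate error, so every interval given here covers counting error only, and a test compares sets of peaks in these libraries.

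Bapx1, also named Nkx3-2, is a homeodomain transcription factor of the NK family that is needed for the formation of the vertebral column and is widely described as a repressor. Homeodomains of this family recognize short sites with the core TAAGTG or TGAGTG. A transcription factor may occupy several sites side by side in one regulatory region, but neighbouring peaks can also arise where the number of copies of a DNA segment, or a repeated sequence, raises the number of tags.

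At Nkx3-2 itself, tags were in excess over the exons in both NIH3T3 libraries, the control included. The 2 peaks over the gene, which are not among the clustered peaks, held 974 and 854 V5-Bapx1 and 192 and 186 V5 control tags, whereas the embryo libraries held between 9 and 21 tags there. Its exons (2000 bp) held 1830 V5-Bapx1 and 380 V5 control tags, and its introns (1332 bp) held 4 and 12. Scaled to 10000000 autosomal tags, the V5 control had 157 tags per kb over the exons and 7.42 over the introns, against 6.52 and 4.90 in wildtype S-peptide embryos. The labels of the V5 control (empty vector, wild type or input) do not say where this excess over exons came from, and its source was not tested. As this is the only NIH3T3 control, no ratio to it could be repeated with another.

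The sequences at the strongest summits showed how unlike the clusters were. The 101 bp around the summit with the most tags are given for 8 clusters, chosen by their number of peaks and named by their host gene or the nearest protein-coding start. They are printed on the forward strand of mm9, and capitals mark each match to TAAGTG or TGAGTG on either strand, so that CACTTA and CACTCA are matches on the reverse strand and a longer run of capitals holds adjoining or overlapping matches.
Near Tmco5, chr2:116380526-116380626: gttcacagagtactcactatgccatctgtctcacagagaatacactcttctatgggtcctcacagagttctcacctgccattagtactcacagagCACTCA
Near Ifne, chr4:88580759-88580859: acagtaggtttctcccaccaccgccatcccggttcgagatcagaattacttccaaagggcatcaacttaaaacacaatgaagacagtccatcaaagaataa
Near Olfr1423, chr19:12085034-12085134: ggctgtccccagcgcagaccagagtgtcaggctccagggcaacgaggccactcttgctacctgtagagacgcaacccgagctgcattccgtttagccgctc
In Cntn5, chr9:10094181-10094281: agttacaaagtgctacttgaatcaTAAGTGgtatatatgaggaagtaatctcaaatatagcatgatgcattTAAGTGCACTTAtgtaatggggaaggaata
In AK129341, chr9:8094783-8094883: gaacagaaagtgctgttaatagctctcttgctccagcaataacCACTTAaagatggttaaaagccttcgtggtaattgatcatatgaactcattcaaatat
In Sec62, chr3:30710246-30710346: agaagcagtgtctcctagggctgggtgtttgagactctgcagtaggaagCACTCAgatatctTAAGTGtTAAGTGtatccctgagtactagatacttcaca
In Dlgap1, chr17:71078558-71078658: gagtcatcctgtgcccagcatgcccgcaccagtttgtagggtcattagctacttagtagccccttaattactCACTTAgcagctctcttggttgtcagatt
In 2700069I18Rik, chr3:5210276-5210376: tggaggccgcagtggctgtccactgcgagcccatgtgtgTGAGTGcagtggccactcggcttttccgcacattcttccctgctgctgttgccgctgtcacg

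The summits in Cntn5 and Sec62 each held 3 matches, while the strongest summits near Ifne and Olfr1423 held none. Cntn5 encodes a neural cell adhesion molecule of the contactin family, Sec62 encodes a component of the protein translocation machinery of the endoplasmic reticulum, and Ifne encodes an interferon.

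Most clusters were small. There were 188 clusters of 3 clustered peaks and 76 of 2, and only 59 clusters held 4 or more. Another 180 clusters held a single clustered peak, because its neighbours within 10 kb either lay within 1 kb of a start or had too few neighbours of their own. A summit within 1 kb of a start lay within 10 kb of 298 of the 1176 clustered peaks. Neighbouring clustered summits were 2895 bp apart at the median (673 gaps, range 236 to 9994 bp), and 19.0% of the gaps were below 1 kb. Clusters of 2 or more spanned 7049 bp at the median and at most 32520 bp.

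The clustered peaks held slightly more tags than the other distal peaks at the median, but had lower fold enrichment. The authors' count of tags had a median of 15 in the clustered peaks (range 9 to 798) and 13 in the other distal peaks, and the authors' fold enrichment had a median of 11.9 and 13.8. Peaks with a p of at most 1e-10 made up 23.0% (271) of the clustered peaks and 22.3% (4307) of the others. In clusters of 3 the strongest peak held 42.2% of the summed tags at the median. Every member had to be called as a peak, with at least 9 tags, so this share is a description. Next to the limit of 10 kb, the 12 clustered peaks whose second nearest summit was 9903 to 9994 bp away had a median of 11.5 tags, and the 12 distal peaks with that summit 10027 to 10096 bp away had 12.5. Next to the limit of 1 kb, the 12 clustered peaks 1017 to 1097 bp from a start had a median of 16 tags, and the 23 peaks with 2 neighbours but 901 to 999 bp from a start had 17.

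**Figure D1:**
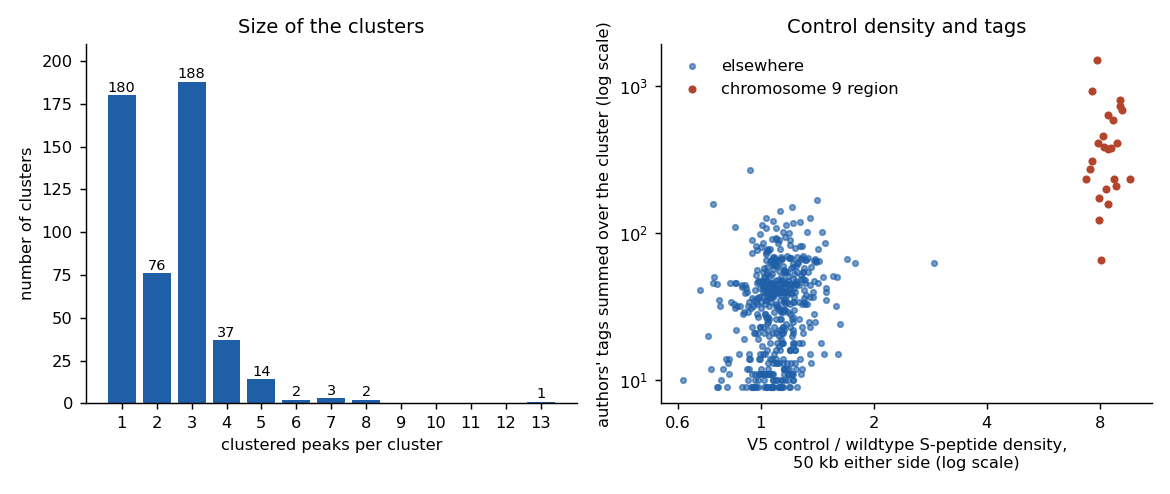
Left, number of clusters by the number of clustered peaks each holds. Right, each of the 503 clusters by the density of V5 control tags relative to wildtype S-peptide tags within 50 kb of the cluster (x, log scale) and by the authors' tags summed over its peaks (y, log scale). The 24 clusters of the chromosome 9 region stand apart on the right and reach 1485 tags.

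One region of chromosome 9 held the clusters with the most tags and also had far more control DNA than the rest of the genome. In bins of 500 kb with at least 1000 wildtype S-peptide tags, the density of V5 control tags was set against that of wildtype S-peptide tags, each scaled to its autosomal total, as a relative measure of the amount of DNA in NIH3T3 cells. This ratio was between 6.31 and 8.77 in all 8 bins of chr9:6500001-10500000 and at most 1.85 in any other of the 4740 bins, with a median of 0.997. The region of 4 Mb held 229 distal peaks, of which 72 (31.4%) were clustered, in 24 clusters. Among all distal autosomal peaks 1.12% had a relative density above 3 within 50 kb of the summit, among the clustered peaks 6.12% (72 of 1176), and each of these 72 lay in this region.

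The clustered peaks of the chromosome 9 region held 10434 tags, 35.7% of the tags of all clustered peaks. Their median was 118 tags against 14 elsewhere, yet their median fold was 7.39 against 12.2. These peaks were also wider, since the 72 covered 146636 bp and the other 1104 covered 497534 bp. Tags per peak are therefore not counts over equal lengths. The cluster in Cntn5 had 7 peaks and 1485 summed tags, the highest sum of all clusters. Its 7 peaks from left to right held 226, 91, 527, 269, 133, 140 and 99 tags, beside 159, 59, 250, 190, 102, 65 and 62 tags of the V5 control. All of its peaks held more ChIP than control tags before scaling, and the peak with 527 tags, the one printed above, was the highest in both libraries. Scaled to the autosomal tags, ChIP exceeded control in the peaks of this cluster by 2.32-fold (95% interval 2.13 to 2.52).

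The clusters with the next highest sums lay in the same region. The cluster at Birc2, an inhibitor of apoptosis, had 5 peaks, of which the first 3 from the left lay in the gene. They held 275, 158, 344, 95 and 49 tags against 214, 122, 173, 54 and 16 in the control, and none of these summits had the motif within 50 bp. Near Yap1, the transcriptional coactivator of the Hippo pathway, a single clustered peak held 798 tags against 544 in the control. This peak was 9324 bp long, the longest of the clustered peaks. Its summit was 1560 bp from the start, which lay within the called peak. Of the 2 clusters at AK129341, the one with 725 tags had all 7 peaks in the gene, and the one with 688 tags had 2 of its 4 peaks there, with its strongest peak of 336 tags outside, 5340 bp from the start. In all of these the relative control density was between 7.64 and 9.14, and its part in the number of tags and of peaks was not tested. Over the 72 clustered peaks of the region the scaled ratio of ChIP to control was 2.17 (95% interval 2.10 to 2.24), and over the other 1104 it was 6.69 (6.47 to 6.93). Over all 1176 clustered peaks the ratio was 3.85 (3.77 to 3.94). For all 19326 other distal peaks, 157 of them in the region, it was 6.75 (6.69 to 6.80), and it was not computed without those 157. These ratios describe peaks that were called for their excess over this control.

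Control density was also somewhat higher around the clusters outside this region. Within 50 kb of the clusters, V5 control density relative to wildtype S-peptide was 1.34 (381770 against 468467 tags) with the chromosome 9 region and 1.11 (95% interval 1.11 to 1.12) without it. At single peaks the median of the relative density was 1.12 for all clustered peaks and 1.11 for those outside the region. It was 1.04 for all other distal peaks. Across the 19 autosomes the clustered share of distal peaks rose with the relative control density, from 1.87% (45 of 2408) on the 4 autosomes of lowest density to 7.63% (402 of 5271) on the 4 of highest density. Chromosome 9 had a clustered share of 10.3%, and 3.88% (29 of 748) without the region. Spearman's rho over the 19 autosomes was 0.76 and Pearson's r was 0.66, and with the region left out they were 0.91 and 0.88, as a description of chromosomes that share the same libraries. Distal peaks per Mb rose with the control density as well (Pearson's r = 0.86). The clustered share rose with distal peaks per Mb (Pearson's r = 0.72), and the rule, which counts neighbouring summits, ties that share to the number of peaks. The contribution of control density to the number of clusters was not tested.

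**Figure D2:**
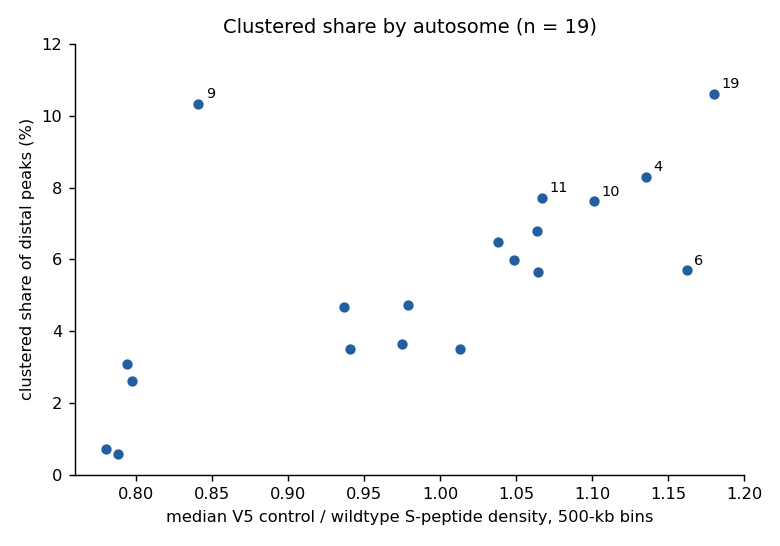
Clustered share of distal peaks (y, %) for each of the 19 autosomes against the median density of V5 control relative to wildtype S-peptide tags in 500-kb bins (x), with some autosomes numbered. The share is highest on chromosomes 19 (10.6%) and 9 (10.3%), and chromosome 9 lies apart from the trend.

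The cluster with the most peaks was an array of tandem repeats that carried the motif itself. It lay between genes at chr2:116371304-116386935, and the nearest protein-coding start, that of Tmco5, was 323851 bp from its strongest summit. Its 13 peaks held 10, 9, 15, 14, 32, 18, 33, 51, 11, 15, 16, 27 and 15 tags from left to right. The V5 control held 2, 4, 4, 3, 4, 2, 7, 17, 1, 2, 6, 6 and 5 tags in the same peaks. ChIP was higher than the control in all 13, and over the cluster it exceeded the scaled control by 6.11-fold (95% interval 4.63 to 8.17). The 13 peaks were called for their excess over this control, so these values are a description. The relative control density within 50 kb was 0.932, close to that of the genome.

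All 13 summits of this cluster had the motif within 50 bp, with 38 matches in total, and each shared at least one run of 16 bases with another summit of the cluster within 100 bp. When the sequence of the cluster was compared with itself at shifts from 5 to 2000 bp, identity was highest at 29 bp, where 67.3% of the bases were the same. It was 61.9% at 58 bp, 16.8% at 30 bp and 26.6% at the median over all shifts. The 15731 bp held 354 motif matches, 307 of TGAGTG and 47 of TAAGTG, which is 22.5 per kb, whereas the other 246 clusters of 3 or more had a median of 1.55 and at most 7.54 per kb over their span. Of 353 neighbouring pairs of matches, 197 (55.8%) were exactly 29 bp apart. Summits 1, 3 and 13 of the cluster, numbered from the left, show the repeated unit, chosen after their sequences were seen, with capitals as above.
Summit 1, chr2:116371254-116371354: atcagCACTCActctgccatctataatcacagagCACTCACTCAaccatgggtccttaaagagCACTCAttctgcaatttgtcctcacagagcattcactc
Summit 3, chr2:116372979-116373079: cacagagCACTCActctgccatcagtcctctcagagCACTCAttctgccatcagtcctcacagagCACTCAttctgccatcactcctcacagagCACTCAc
Summit 13, chr2:116386885-116386985: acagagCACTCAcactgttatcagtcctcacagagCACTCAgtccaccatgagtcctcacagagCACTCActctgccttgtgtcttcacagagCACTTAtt

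In the embryo, the same 13 peaks held 137 Bapx1 and 125 wildtype S-peptide tags, a scaled ratio of 0.911 (95% interval 0.710 to 1.17). The array was covered by reads in the embryo libraries, and no excess of Bapx1 over wildtype was detectable there. Runs of 16 bases shared within a cluster were found at 19 clustered peaks in 4 clusters in all, the array included, and 176 clustered peaks (15.0%) shared such a run with a clustered peak of another cluster.

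**Figure D3:**
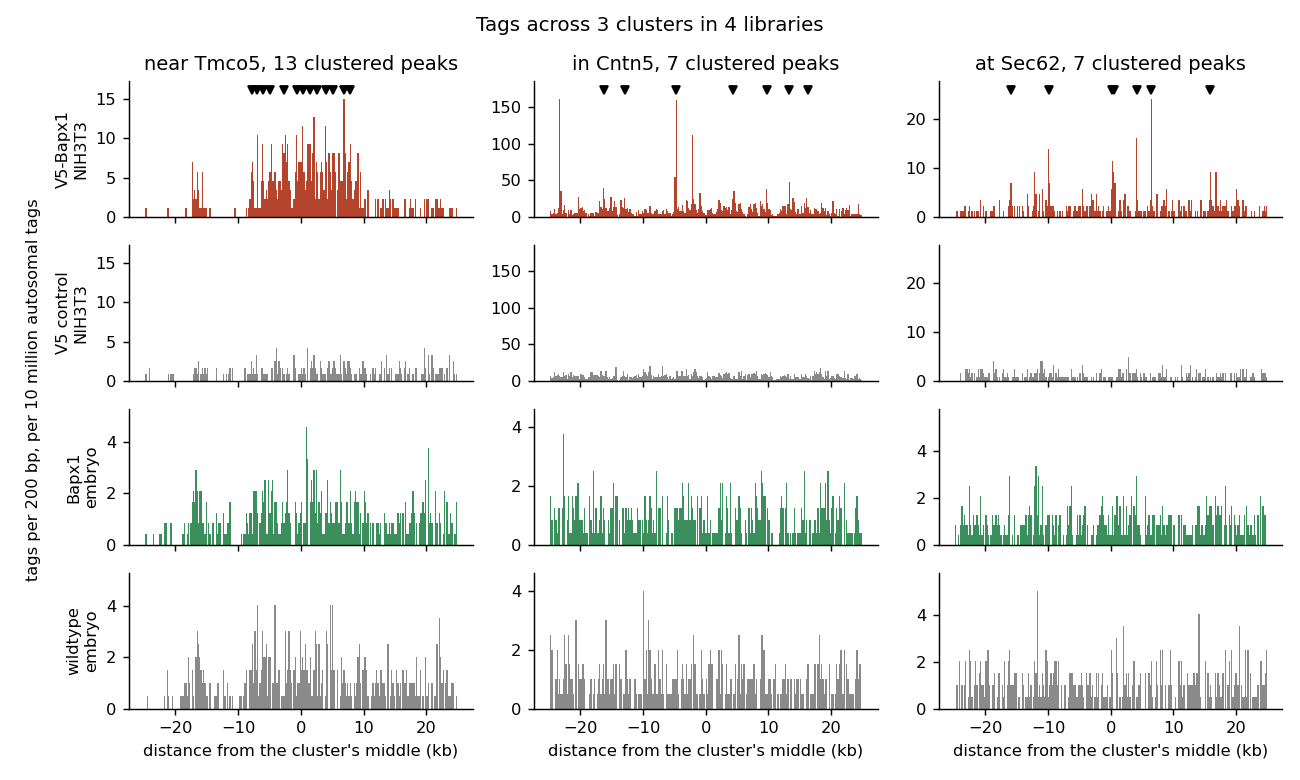
Tags in bins of 200 bp (y, scaled to 10000000 autosomal tags) across 25 kb on either side of the middle (x, kb) of the clusters near Tmco5, in Cntn5 and at Sec62, in the 4 libraries. Triangles mark the 13, 7 and 7 clustered summits, the scale is shared within each pair of ChIP and control, and V5-Bapx1 tags stand above the control along the Tmco5 array and at separate summits at Sec62.

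Summits with several motif matches also occurred in other clusters. Within 50 bp of the summit, 25 clustered peaks (2.13%), the array included, had 4 or more matches, against 2.12% (409) of the other distal peaks (two-sided Fisher's exact test; p = 0.917). Without the array, 21 of 1163 clustered peaks (1.81%) had as many (Fisher's exact test, p = 0.528). All such tests given here are two-sided. The most matches at a clustered summit was 8. Elk3 encodes an ETS factor, and the peak 20226 bp from its start held 79 tags against 12 in the control. The peak near Med13l, a subunit of the Mediator kinase module, held 38 tags against 11. Of the 4 clustered summits with 8 matches, these are printed as those with the most tags outside the chromosome 9 region, chosen after their values were seen. The others were a peak of 198 tags against 120 near Gm10709 in that region and one of 19 against 4 whose nearest protein-coding start was that of Fh1.
Near Elk3, chr10:92794056-92794156: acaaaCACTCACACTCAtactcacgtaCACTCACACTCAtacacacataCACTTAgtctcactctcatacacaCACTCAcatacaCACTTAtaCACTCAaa
Near Med13l, chr5:118917661-118917761: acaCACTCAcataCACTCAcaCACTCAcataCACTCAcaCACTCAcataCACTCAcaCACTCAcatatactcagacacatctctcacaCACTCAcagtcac

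Clustered peaks held the Bapx1 motif less often than other distal peaks. TAAGTG or TGAGTG occurred within 50 bp of 54.3% (638 of 1176; 95% exact binomial interval 51.4 to 57.1) of the clustered summits. Of the other distal summits 68.2% held it (13179 of 19326; 67.5 to 68.8), a difference of -13.9 percentage points (Fisher's exact test, p = 5.31e-22), and of all distal autosomal peaks 67.4%. The difference lay in TAAGTG, which was found at 43.0% of the clustered and 61.5% of the other summits (p = 2.39e-35, two-sided Fisher's exact test). TGAGTG was found at 16.6% and 15.2% (Fisher's exact test, p = 0.195), and at 15.7% of the clustered summits without the array. With only the strongest peak of each cluster kept, TGAGTG was at 19.1% of the clustered summits, 3.93 points more than at the others (Fisher's exact test, p = 0.0199). In that same comparison, 59.4% of 503 clustered summits held either core (Fisher's exact test against the other distal summits, p = 4.62e-05). The strongest peak was picked on the clustered side only, while all other distal peaks were kept, so the sides were not chosen alike. At least 2 matches were found at 18.2% and 27.0% of the summits (Fisher's exact test, p = 5.43e-12).

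The motif was nevertheless concentrated at clustered summits. In the flanks, windows of equal length centred 500 bp to the left and right, it occurred in 12.6% (297 of 2352), against 54.3% at the summit (Fisher's exact test, p = 1.89e-148). In the flanks of the other distal peaks it occurred in 10.8%. TAAGTG was found in 5.74% of the flanks of clustered peaks and TGAGTG in 7.61%, and both were more frequent at the summit (Fisher's exact test, p = 1.07e-154 and p = 2.25e-15).

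**Figure D4:**
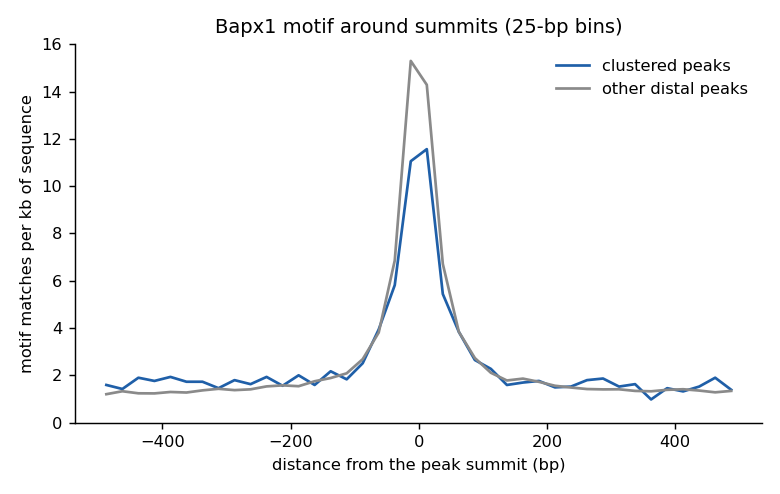
Matches to TAAGTG or TGAGTG per kb of sequence (y) in 25-bp bins by distance from the summit (x, bp) for 1176 clustered and 19326 other distal peaks. Both curves peak at the summit, at 11.6 and 15.3 matches per kb, and beyond 300 bp they average 1.58 and 1.33.

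The gap between clustered and other peaks held in each tertile of the authors' tags and was -14.3 points without the chromosome 9 region. Among peaks with a p of at most 1e-10 it was -12.7 points, with 68.6% of clustered and 81.3% of other summits holding the motif (Fisher's exact test, p = 1.61e-06). It did not pass the test in the highest tertile of fold enrichment or the lowest tertile of GC content, and differences between tertiles were not tested. Among peaks in the highest tertile of the authors' fold, 81.5% of clustered and 83.1% of other summits held the motif (Fisher's exact test, p = 0.504), while the middle tertile had 60.1% and 70.7% (Fisher's exact test, p = 0.000107) and the lowest 39.1% and 50.1% (Fisher's exact test, p = 3.23e-07). That lowest tertile held 598 of the 1176 clustered peaks. The 101 bp at the summit had a median GC content of 41.6% in clustered and 37.6% in other peaks. In the lowest tertile of GC content 72.8% and 75.0% of the summits held the motif (Fisher's exact test, p = 0.436), in the middle tertile 65.3% and 77.4% (Fisher's exact test, p = 1.30e-06), and in the highest tertile 38.8% and 50.6% (Fisher's exact test, p = 8.08e-08). Clustered peaks without the motif had a median GC content of 47.5% and a median fold of 10.6, and those with it 38.6% and 13.8. The part of these features in the difference was not tested.

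Within a cluster the strongest peak carried the motif more often than its neighbours. In the 323 clusters with 2 or more clustered peaks, 59.4% (192) of the strongest and 50.4% (339 of 673) of the remaining summits held it, a difference of 9.07 points (Fisher's exact test, p = 0.00812). With the summits matched within each cluster the difference was 9.12 points (exact conditional test with clusters as strata, p = 0.00437). With the strongest peak taken by the authors' p in place of their tags, the shares were 65.3% and 47.5%, 17.8 points apart (Fisher's exact test, p = 1.59e-07). Of the 247 clusters with 3 or more, 170 mixed summits with and without the motif, 50 had it at every clustered summit and 27 at none. In the cluster at Sec62, whose first peak from the left lay outside the gene and the other 6 inside, 5 of 7 summits held it, with 10, 19, 16, 14, 18, 26 and 11 tags from left to right against 0, 4, 2, 0, 6, 3 and 1 in the control, and the summit with the most tags had 3 matches. In Ahnak2, which encodes a large scaffold protein, the 5 peaks held 67, 33, 20, 19 and 10 tags against 5, 10, 4, 3 and 2, and only the first, with 7 matches, carried the motif. Where Jun, a subunit of AP-1, was the nearest protein-coding gene, the cluster of 4 peaks held 23, 45, 16 and 17 tags against 4, 9, 3 and 5 and had the motif at none. These 4 peaks lay in BC042782, between 47504 and 54278 bp from the Jun start. Another cluster nearest to Jun, 21875 bp from its start, had a single clustered peak with 18 tags against 2, and its summit held 2 matches to TAAGTG.

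Of the 3 other motifs, none passed the test against all other distal peaks within 50 bp, whereas AP-1 sites passed it within 100 bp and, within 50 bp, against isolated peaks and against flanks. AP-1 sites (TGANTCA, either strand) occurred within 50 bp of 9.78% (115) of the clustered and 8.01% of the other distal summits, and of 8.11% of all distal peaks (Fisher's exact test, p = 0.0364, adjusted p = 0.109 after Benjamini-Hochberg over 3 motifs). Within 100 bp they occurred at 17.9% and 14.3% (Fisher's exact test, adjusted p = 0.00357). Within 50 bp of isolated distal summits they occurred at 7.58%, against the 9.78% of the clustered summits (Fisher's exact test, adjusted p = 0.0233). Runx sites (TGTGGT) occurred at 6.29% and 6.16% (Fisher's exact test, adjusted p = 0.851), with 6.17% over all. Tead sites (GGAATG) occurred at 5.61% and 4.94% (Fisher's exact test, adjusted p = 0.450), with 4.98% over all. Against their own flanks only AP-1 sites were more frequent at clustered summits, 9.78% against 3.95% (Fisher's exact test, p = 2.07e-11), while Runx sites were at 6.72% and Tead sites at 5.74% in the flanks.

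More of the clustered peaks lay inside genes. Of the 1176, 60.9% (716) were in an intron or exon, 674 of them in introns and 42 in exons. Among the other distal peaks it was 48.1%, 12.8 points less (Fisher's exact test, p = 1.76e-17), and among all distal peaks 48.9%. Clustered peaks were also closer to genes, with a median of 9341 bp to the nearest start of any transcript against 27673 bp. The rule counts summits within 1 kb of a start as neighbours, and 298 clustered peaks had such a summit within 10 kb. Closeness to starts is therefore partly set by the rule and is a description. Its part in the share inside genes was not tested. In both strata the motif was less frequent at clustered peaks, at 55.4% and 66.6% of the summits inside genes and at 52.4% and 69.7% outside.

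**Figure D5:**
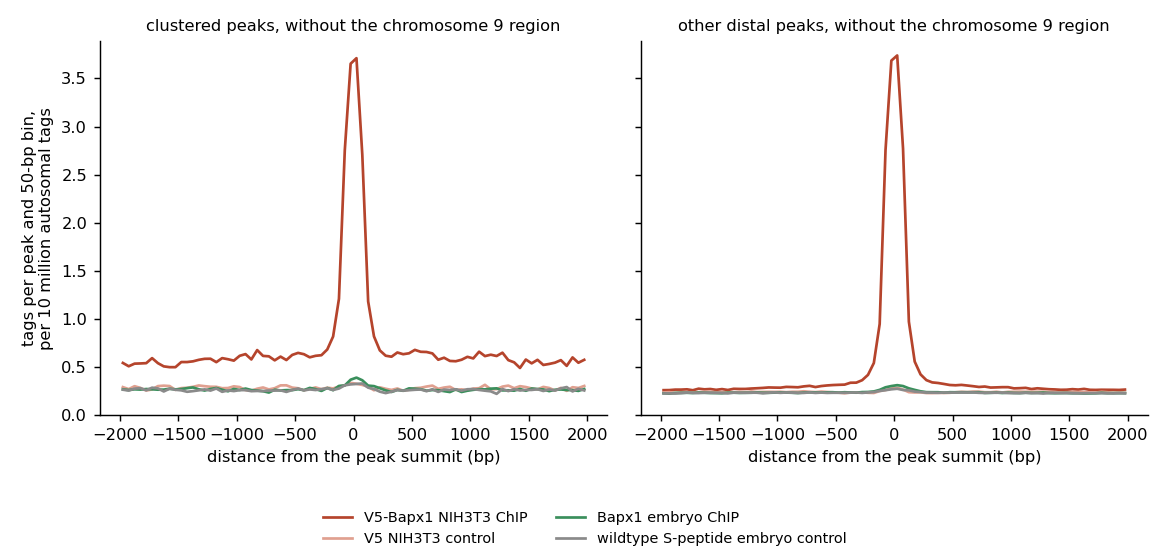
Mean number of tags per peak in 50-bp bins (y, scaled to 10000000 autosomal tags) by distance from the summit (x, bp) in the 4 libraries, for clustered (left) and other distal (right) peaks without the chromosome 9 region. V5-Bapx1 tags reach 3.68 and 3.71 at the centre, and beyond 1 kb they average 0.561 around clustered and 0.270 around other peaks, while the V5 control averages 0.286 and 0.238. The rule places other peaks within 10 kb of each clustered summit, so the excess beyond 1 kb is a description.

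V5-Bapx1 tags were raised between the peaks of a cluster as well as under them. The spans of the 305 clusters of 2 or more outside the chromosome 9 region were counted with every listed peak and 200 bp on either side taken out. In the remaining 1518755 bp there were 10988 V5-Bapx1 and 10062 V5 control tags, a scaled ratio of 1.53 (95% interval 1.49 to 1.57). In the same stretches the embryo libraries held 18513 Bapx1 and 15149 wildtype tags, a ratio of 1.02 (0.994 to 1.04). Since the clusters were chosen by peaks from the same V5-Bapx1 tags, the NIH3T3 ratio is a description. Between the peaks of the 18 clusters of the chromosome 9 region it was 1.22 (95% interval 1.16 to 1.29). Beyond 1 kb from other distal summits, scaled V5-Bapx1 tags averaged 0.270 per bin and the V5 control 0.238, so V5-Bapx1 was higher there too.

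Few clustered peaks coincided with a Bapx1 peak of the embryonic vertebral column. An embryo Bapx1 peak overlapped 6 (0.510%) of the clustered and 76 (0.393%) of the other distal peaks (Fisher's exact test, p = 0.474), and 0.400% of all distal peaks. Counted once per cluster, where a cluster has several chances to overlap, the share was 1.19% of 503 clusters, 0.800 points above the other distal peaks (Fisher's exact test, p = 0.0179). The 6 peaks lay in 6 clusters, near Elk3 and Msl1 and in Litaf, Camk1d, Dnajb4 and Tgfbr3. Msl1 is part of a histone acetyltransferase complex, Dnajb4 is a heat shock protein 40 chaperone and Tgfbr3 is the TGF-beta coreceptor betaglycan. The strongest embryo peak of these, 6518 bp from the Msl1 start, held 42 Bapx1 and 12 wildtype tags within the NIH3T3 peak limits, and its NIH3T3 peak held 34 tags against 5. In Camk1d the embryo tags were 37 and 9, in Dnajb4 31 and 9, in Litaf 27 and 6, near Elk3 23 and 7, and in Tgfbr3 23 and 8. These tags are not scaled, and their excess over wildtype is what the embryo peaks were called for. The summits of both lists were 1 to 101 bp apart, and the authors' false discovery rate for these embryo peaks was between 53.5% and 70.1%. The motif was present at the NIH3T3 summit in 4 of them and absent in Dnajb4 and Tgfbr3.

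Over all clustered peaks, the embryo Bapx1 library exceeded wildtype S-peptide by a scaled ratio of 1.09 (9765 against 7455 tags; 95% interval 1.06 to 1.12). Over the other distal peaks the ratio was 1.10 (107838 against 81614 tags; 1.09 to 1.11). A difference between the sets was not detectable (difference in ratio -0.00952; two-sided Fisher's exact test on the tags, p = 0.590).

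The nearest protein-coding start of the clustered peaks belonged to 492 genes, which is 2.31% of the 21281 protein-coding autosomal genes. Cntn5 was nearest to 21 clustered peaks and Dync2h1, a dynein of cilia, to 13, and both lie in the chromosome 9 region. Of 36 genes of cartilage and the skeleton, among them Sox9, Col2a1 and Runx2, 0 were nearest to a clustered peak. Sparc, Mmp3 and Mmp13 of the fibroblast matrix list were nearest to clustered peaks. Sparc, which encodes osteonectin, had 4 peaks with 11, 22, 21 and 11 tags against 1, 4, 4 and 1. The metalloprotease genes Mmp3 (3 peaks, 172 tags) and Mmp13 (4 peaks, 587 tags) are part of the chromosome 9 region, where the relative control density was 7.96 and 8.66.

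Among 20 genes of the TGF-beta pathway 4 were nearest to clustered peaks, namely Tgfbr3, the signal transducer Smad3, the corepressor Tgif1 and Ltbp1, which binds latent TGF-beta. The 4 peaks at Smad3, the first 3 in the gene and the last 4005 bp from its start, held 13, 9, 13 and 11 tags against 3, 0, 2 and 3, and 3 of them had the motif. The 3 peaks in Tgfbr3, at least 67516 bp from its protein-coding start, held 18, 10 and 12 tags against 2, 0 and 2 and had none. The 3 peaks in Ltbp1 were at least 67880 bp from its protein-coding start. The 6 peaks in Dlgap1, whose nearest protein-coding gene was Tgif1, were at least 107822 bp from its start and held 22, 12, 12, 25, 13 and 24 tags against 7, 3, 1, 4, 3 and 9. Of 16 immediate early and AP-1 genes 4 were nearest, Jun, Junb, Atf3 and Ier3, of 29 genes of the actin cytoskeleton and adhesion 2, Cald1 and Lpp, and of 10 Runx, Tead and related factors 1, Yap1. The closest clustered peaks of Jun, Junb, Atf3 and Ier3 were 21875, 2814, 30318 and 7814 bp from their protein-coding starts. Yap1 lies in the chromosome 9 region. Of all protein-coding autosomal genes 2.31% were nearest to a clustered peak. These lists are small and the counts were not tested.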

How the data were processed

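The tag positions and peak lists deposited by the authors were used as deposited for 4 of the 6 libraries; the Sox9 and IgG libraries were not used here. Per the study's methods, reads were mapped uniquely to mm9 with at most a pair of mismatches, and MACS called peaks against the control. Per the file headers, the band width was 300 and the p cutoff 1e-05. The deposited lists hold, per peak, the authors' count of ChIP tags, their score (−log10 p times 10), a ratio giving the fold over the local background, and an FDR as a percent. No peaks were called again.

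One tag per position and strand was kept, since 2.40% and 6.53% of the NIH3T3 tags repeated one and 0% of the embryo tags did. A tag of 35 bp was counted where its centre lay, and libraries were scaled to their autosomal tags. Sequence and genes were read from NCBIM37 (mm9) with GENCODE annotation. Motifs were searched on both strands within 50 bp of the summit. Fisher's exact test, two-sided, compared shares (threshold 0.05), with exact binomial 95% intervals (Python 3, numpy, pandas, scipy), which treat peaks as independent. The rule and tests were tested on simulated data.

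The members and lists were chosen with earlier results of these data known. Clusters were named if they were among the 10 with the most peaks, the 5 with the most tags, the 5 with the most motif summits or 5 of those with embryo overlaps, or lay nearest to a gene of 6 lists (at most 4 genes per list). The other of the 6 clusters with an embryo overlap, in Tgfbr3, was named through its list. Of the listed genes, Timp1 and Flna are not autosomal. The count for the fibroblast matrix list is not reported here. Alternatives changed windows, peak limits and comparison sets.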

Additional observations from a re-analysis of the deposited data

How the results depend on the processing

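Of 75 alternative values, 61 kept their direction and side of the threshold, or stayed close to the value given. No paired analysis was possible because each condition has 1 library, so that no libraries could be paired. Matching summits within clusters was added after the data were seen. The number of clustered peaks was 497 with a window of 5 kb, 2713 with 20 kb and 30 among peaks with p of at most 1e-10, an alternative added after the data were seen. The motif difference was -1.58 points (Fisher's exact test, p = 0.504) in the highest tertile of fold and -2.13 points (p = 0.436) in the lowest tertile of GC content, both added after the data were seen. Over its other alternatives it ranged from -18.5 to -6.73 points. AP-1 sites passed the threshold in windows of 100 bp (Fisher's exact test; 3.52 points, adjusted p = 0.00357) and against isolated peaks (2.20 points, adjusted p = 0.0233). Counted once per cluster, where a cluster has several chances to overlap, embryo overlap differed by 0.800 points (Fisher's exact test, p = 0.0179). TGAGTG passed for 1 peak per cluster (3.93 points, Fisher's exact test, p = 0.0199), an alternative added after the data were seen. There only the clustered side was limited to its strongest peaks. The embryo ratio differed by 0.00106 within 200 bp of the summits, and 4 or more matches by -0.311 points without the Tmco5 array; both signs turned, with no call. Relative control density around the clusters was 1.42 within 10 kb and 1.11 without the chromosome 9 region. With starts within 100 kb, 6 of 29 actin and adhesion genes and 6 of 16 immediate early and AP-1 genes were counted, beside 7.08% of all genes. The causes were not tested. At a median of 15 tags per peak, single peaks are imprecise.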
